A study of Danio rerio with 13 samples.

Results

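The gene described here is tert (symbol TERT in the files, ENSDARG00000042637), which encodes telomerase reverse transcriptase. It is 1 of 32105 genes counted in the livers of 13 zebrafish, and it was taken by its gene identifier as the gene whose mutation defines the genotypes. RNA sequencing covered 5 wild-type fish (tert+/+, strain AB), 5 heterozygous mutants (tert+/-, strain AB) and 3 homozygous mutants (tert-/-, strain AB), all male, 3 months old and with no treatment named. The labels number the fish singly, so every liver was counted as 1 animal. The mutants carry the hu3430 allele of tert, which the study describes as a nonsense mutation. Whether mutants and wild-type fish were siblings is not given in the sources used here.

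Telomerase is a reverse transcriptase that adds short repeats to chromosome ends, copying them from an RNA subunit that it carries. The tert protein is the catalytic subunit, and dyskerin with its partner proteins binds and stabilizes the RNA. Without the enzyme, telomeres shorten with each round of DNA replication, and very short ends engage the DNA damage checkpoint. In mammals most adult somatic cells hold little TERT transcript, while germ cells, activated lymphocytes and progenitors of renewing tissues such as the gut hold more. In zebrafish, tert mutants age early, with the gut and the testis among the first tissues affected.

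The livers were of 2 kinds. In 10 livers apoea, a fish gene for apolipoprotein E, lay below 100 CPM (the count divided by the total of its column, times 1000000), at 0.0562 to 2.15 CPM. In the other 3, which were tert+/+ replicate 5, tert+/- replicate 3 and tert-/- replicate 1, it lay above 1000 CPM, at 11863 to 18929.7 CPM. No liver lay between these limits. The livers low in apoea were 4 tert+/+, 4 tert+/- and 2 tert-/-, so each genotype had 1 liver high in apoea. The 12 intestine marker genes together took 0.00961% to 0.0388% of the counts in the 10 livers and 2.098% to 3.32% in the other 3, where the 15 hepatocyte markers took 1.804% to 2.91% against 6.801% to 20.4%. Fabp10a, the liver fatty acid binding protein, was present in all 13 livers, at 14065 to 34086 CPM after scaling by TMM (trimmed mean of M-values) in the 10 and at 1886 to 3502 in the 3. The 3 livers labelled as liver therefore also held transcripts that mark intestine, and every comparison of tert was made with and without them.

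Total counts ranged from 17801374 to 37309651. In tert+/+ replicate 1 and tert+/- replicate 5 the 8 heart muscle markers summed to 7045 and 6347 CPM, against 2.05 to 32.5 CPM elsewhere. In tert-/- replicate 1 the 14 exocrine pancreas markers summed to 7568 CPM, against 26.6 to 537 CPM elsewhere. Genes encoded by mitochondrial DNA took 54.7% of the counts in tert+/+ replicate 4, 40.3% in tert+/- replicate 3 and 32.8% in tert-/- replicate 2, and 7.93% to 21.0% in the others.

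In the 10 livers low in apoea, tert was lowest in tert+/+, higher in tert+/- and highest in tert-/-. The counts of tert were 44, 18, 18 and 25 in tert+/+ replicates 1 to 4, then 70, 53, 89 and 129 in tert+/- replicates 1, 2, 4 and 5, and 122 and 138 in tert-/- replicates 2 and 3. After TMM scaling the tert+/+ livers held 2.02, 0.484, 0.673 and 2.39 CPM, the tert+/- livers 3.32, 2.67, 3.41 and 2.70 CPM, and the tert-/- livers 5.68 and 3.95 CPM. No liver of one genotype overlapped a liver of another, and the mutants lay above the wild type. Mean levels were 1.39 ± 0.957 (SD, n = 4), 3.03 ± 0.390 (SD, n = 4) and 4.81 ± 1.22 (SD, n = 2) TMM-normalized CPM. Of the 16219 genes tested in these livers, 5 were apart in all 3 genotypes and rose with the copies lost, which is 0.0308%, and 1 more fell in the same manner (6 genes in either direction, 0.037%). Taken pair by pair, tert-/- lay above tert+/+ with no overlap in 673 genes (4.15%), tert+/- above tert+/+ in 124 genes (0.765%) and tert-/- above tert+/- in 659 genes (4.06%).

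**Figure D1:**
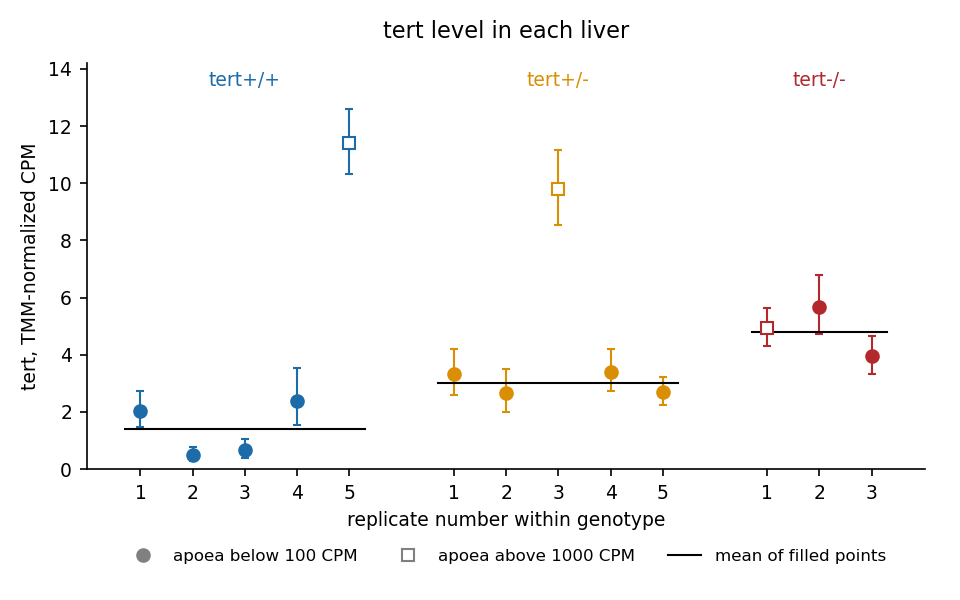
TMM-normalized CPM of tert (y axis) in each of 13 livers, by genotype and replicate number (x axis). Filled circles are livers with apoea below 100 CPM, open squares livers above 1000 CPM, bars the exact 95% Poisson interval of the count, and black lines the mean of the filled circles. The filled circles step up from 1.39 to 3.03 to 4.81 CPM on average, and the open squares of tert+/+ and tert+/- stand at 11.4 and 9.79 CPM.

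After TMM scaling, the wild-type livers themselves formed a lower and a higher pair. By the column total, tert+/+ replicates 2 and 3 held 0.515 CPM (exact 95% Poisson interval 0.305 to 0.814) and 0.621 CPM (0.368 to 0.981), while replicate 4 held 1.17 CPM (0.758 to 1.73) and replicate 1 held 2.47 CPM (1.796 to 3.32). The interval of replicate 1 lay clear of those of replicates 2 and 3. It overlapped the intervals of all 4 tert+/- livers low in apoea, of which replicate 2 was lowest, at 2.33 CPM (1.74 to 3.04). Both tert-/- livers, at 4.22 CPM (3.51 to 5.04) and 4.09 CPM (3.44 to 4.83), lay above the intervals of all 4 wild-type livers. These intervals cover counting error only, and reads made by amplification are not independent molecules. Replicate 1 was the wild-type liver with heart muscle transcripts, and replicate 4 the one with the highest mitochondrial share.

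Sequenced RNA of a whole organ does not tell more cells with tert from more tert RNA in each cell. The RNA of a gene with a premature stop is still counted as long as it is not degraded, and reads were summed over the whole gene, so the level of tert does not check the genotype labels. In general, nonsense-mediated decay lowers transcripts with a premature stop. In the livers low in apoea each of the 6 mutant livers lay above each of the 4 wild-type livers after TMM scaling. By the column total tert+/- replicate 2, at 2.33 CPM, lay below tert+/+ replicate 1, at 2.47 CPM. Among the livers high in apoea the mutants held less, at 9.09 CPM in tert+/- and 7.62 CPM in tert-/- against 15.4 CPM in tert+/+. A total level does not show how much of the mutant RNA is degraded, and decay was not tested.

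Tests of tert in the livers low in apoea did not pass correction over all genes. By the quasi-likelihood test of edgeR, the log2 fold change of tert-/- against tert+/+ was 1.81 (SE 0.58, 95% interval 0.52 to 3.10), with an unadjusted p of 0.0106 and a Benjamini-Hochberg adjusted p of 0.9998. For tert+/- against tert+/+ it was 1.11 (SE 0.50, interval -0.01 to 2.22, unadjusted p = 0.0512). For tert-/- against tert+/- it was 0.70 (SE 0.58, interval -0.58 to 1.99, unadjusted p = 0.252). In each of these comparisons 0 of 16219 genes were called, which is 0%, while 328, 383 and 305 genes had an unadjusted p under 0.05, and DESeq2 called 6, 10 and 4.

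Fitted as 1 trend over the functional copies lost, tert rose by 0.93 per copy on the log2 scale in the livers low in apoea (SE 0.29, 95% interval 0.30 to 1.56). The unadjusted p of edgeR was 0.00745, which ranked 31 among 16219 genes, and the adjusted p was 0.999. The background of this comparison was 1 called gene, or 0.00617%, and 348 genes with an unadjusted p under 0.05, or 2.15%. The called gene was SLC5A11, a sodium-coupled sugar transporter named here after its values were seen, with 0 counts in all 4 tert+/+ livers and 0.601 to 1.07 TMM-normalized CPM in the tert-/- livers against 18.4 to 26.7 CPM in the livers high in apoea. It was not called by DESeq2, nor when any single liver but tert+/- replicate 5 was left out. Leaving out single livers moved the trend of tert between 0.74, without tert+/+ replicate 2, and 1.14, without tert+/+ replicate 4, and its unadjusted p between 0.00358 and 0.0339. Without both livers with heart muscle transcripts the trend was 1.08 (SE 0.33), and without the livers with a mitochondrial share over 30% it was 1.15 (SE 0.38).

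Permutation tests on TMM-normalized CPM were exact and two-sided. In the livers low in apoea, tert-/- exceeded tert+/+ by 3.42 CPM (exact p = 0.0667), tert+/- exceeded tert+/+ by 1.63 CPM (exact p = 0.0286), and tert-/- exceeded tert+/- by 1.79 CPM (exact p = 0.0667), each the smallest p that its design allows. Over all 3150 arrangements of the 10 livers into the 3 genotypes, the slope of log2 CPM per copy lost was 1.09 with an exact p of 0.00857. Adjusted over the 7 permutation tests made, these values were 0.117, 0.10, 0.117 and 0.06, so none passed 0.05. The slope passed when any 1 of tert+/+ replicates 2, 3 and 4 was left out, with exact adjusted p-values of 0.0167, 0.0389 and 0.0333. It was also under the threshold without tert-/- replicate 3, which leaves 1 tert-/- liver low in apoea. The deposited RPKM values described below passed too, but most of them carry the total of another liver, so they are no check of the slope.

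**Figure D2:**
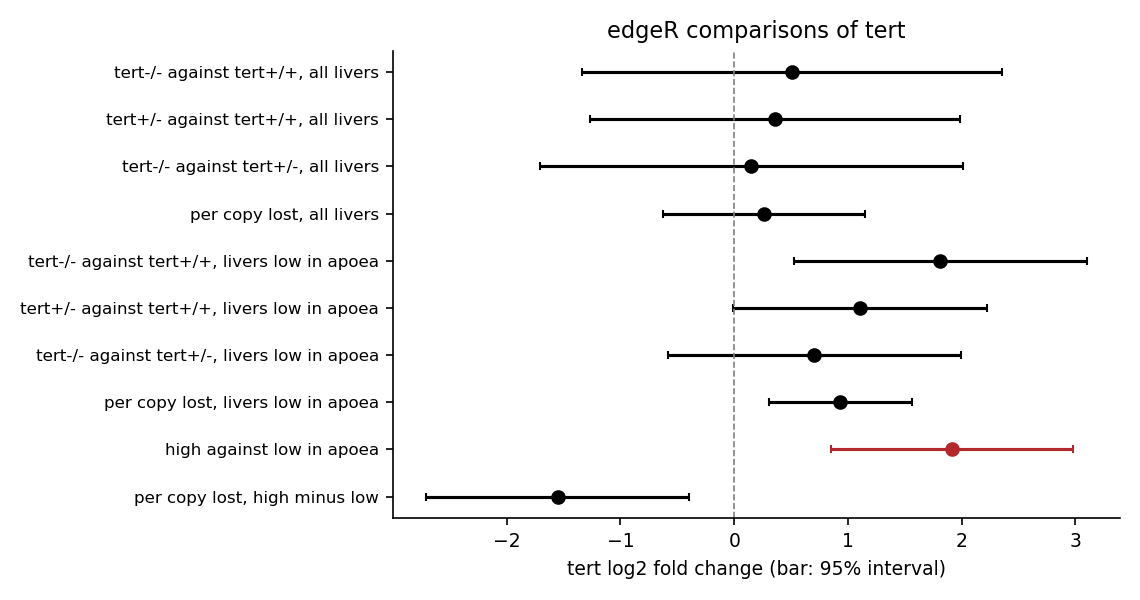
Log2 fold change of tert (x axis) in each of the 10 edgeR comparisons (y axis), with its 95% interval as a bar. The comparison of livers high against low in apoea, in red, has an adjusted p under 0.05. In all 13 livers the genotype intervals reach from -1.71 to 2.35, while in the livers low in apoea the interval for the trend per copy lost runs from 0.30 to 1.56.

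With all 13 livers the genotype differences of tert were not seen. The 3 livers high in apoea held tert counts of 407 in tert+/+, 219 in tert+/- and 218 in tert-/-. Means over all livers were 3.40 ± 4.56 (SD, n = 5), 4.38 ± 3.04 (SD, n = 5) and 4.86 ± 0.865 (SD, n = 3) TMM-normalized CPM, with overlap between all genotypes. The log2 fold changes by edgeR were 0.51 (SE 0.85) for tert-/- against tert+/+, 0.36 (SE 0.75) for tert+/- against tert+/+ and 0.15 (SE 0.86) for tert-/- against tert+/-. The trend per copy lost was 0.26 (SE 0.41, 95% interval -0.62 to 1.15, unadjusted p = 0.532). In these fits 0 of 16376 genes were called (0%), with 184 to 218 at an unadjusted p under 0.05, and DESeq2 called 3, 0, 2 and 1. The size of these values rested on single livers. Without tert+/+ replicate 5 the fold change of tert-/- against tert+/+ was 1.82 and that of tert+/- against tert+/+ was 1.67, and without tert+/- replicate 3 the latter was -0.21, none of them past the threshold.

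The livers high in apoea held more tert than the livers low in apoea in tert+/+ and tert+/-, but tert-/- differed with the scaling. In TMM-normalized CPM, the high liver of tert+/+ held 11.4 against at most 2.39 in the low livers of its genotype, and that of tert+/- held 9.79 against at most 3.41. That of tert-/- held 4.94, between the 3.95 and the 5.68 of the low livers. By the column total it held 7.62 CPM (exact 95% Poisson interval 6.65 to 8.71) and lay above both, and scaling by 8 reference genes placed it above both as well, at 6.395 against 3.55 and 5.11. With genotype in the fit, livers high in apoea exceeded the others by 1.91 on the log2 scale (SE 0.49, 95% interval 0.85 to 2.98, edgeR adjusted p = 0.00887).

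This call of tert stands beside a background of 5651 called genes of 16376, which is 34.5%, or 3137 called higher (19.2%) and 2514 called lower (15.4%), and by its p tert ranked 3721. It also rested on 1 liver. Without tert+/+ replicate 5 the difference was 1.07 (SE 0.55, edgeR adjusted p = 0.203), and without tert-/- replicate 1 it was 2.47 (adjusted p = 0.00316). Over all genes 3427 were called without tert+/+ replicate 5, in both directions together. The call of tert was kept under the other scalings and tools tried, at 1.13 to 2.35. These include limma on RPKM as deposited (1.67, adjusted p = 0.0432). Most of those values carry the total of another liver, so they are no check of the call.

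Among the livers high in apoea the order of the genotypes was the reverse of that in the others. By the column total tert+/+ held 15.4 CPM (exact 95% Poisson interval 13.96 to 17.0), tert+/- 9.09 CPM (7.93 to 10.4) and tert-/- 7.62 CPM (6.65 to 8.71). By this scaling the wild-type liver lay above both mutants beyond counting error, whereas the intervals of the mutants overlapped. After TMM scaling the levels were 11.4, 9.79 and 4.94 CPM. With the Poisson limits scaled likewise, the intervals of tert+/+ and tert+/- overlapped, and that of tert-/- lay below both. The distances between the genotypes thus depended on the scaling. The genotypes have 1 liver each here, with no replicate check. That of tert-/- also held 7568 CPM of exocrine pancreas markers, against 38.1 in tert+/+ and 124 in tert+/-. The part of this difference in the order was not tested. The test of the difference itself gave a trend per copy lost that was lower by 1.55 on the log2 scale than in the livers low in apoea (SE 0.53, 95% interval -2.71 to -0.39), with an unadjusted p of 0.0127 and an edgeR adjusted p of 1. The background was 2 called genes of 16376, or 0.0122%, and 564 with an unadjusted p under 0.05. Without tert-/- replicate 1 the difference was -1.16, and without tert+/+ replicate 5 it was -1.92, both with an unadjusted edgeR p above 0.05.

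The levels of tert in the livers low in apoea were set out under 9 scalings, since TMM moved some livers strongly. The TMM factor was 0.489 in tert+/+ replicate 4 and 0.744 in tert-/- replicate 2, both with a high mitochondrial share, and 0.869 to 1.28 in the other low livers, so TMM raised tert from 1.17 to 2.39 CPM in the former and from 4.22 to 5.68 CPM in the latter. The lowest tert-/- liver lay above the highest tert+/+ liver under all 9. The ratio of the tert-/- to the tert+/+ mean was 2.97 to 3.48, apart from 6.18 with RPKM as deposited, and the ratio of tert+/- to tert+/+ was 2.104 to 2.64, apart from 3.26. All 3 genotypes were apart under TMM, TMM within these livers, TMM without mitochondrial genes, RLE size factors and the upper quartile. Under the column total and RPKM recomputed from it, tert+/- overlapped tert+/+, because tert+/- replicate 2 at 2.33 CPM lay below tert+/+ replicate 1 at 2.47 CPM. With the 8 reference genes both neighbouring pairs overlapped, and with RPKM as deposited tert-/- overlapped tert+/-.

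**Figure D3:**
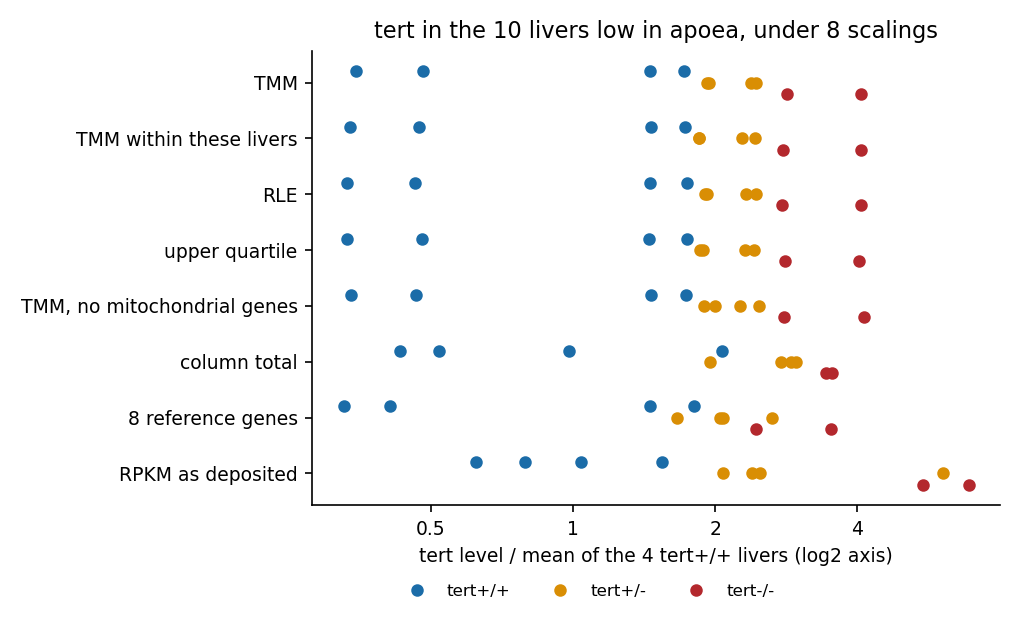
Level of tert in each of the 10 livers low in apoea, divided by the mean of the 4 tert+/+ livers (x axis, log2 scale), under 8 scalings (y axis). Points are livers, coloured by genotype. RPKM recomputed with each liver's own total has the same relative values as the column total and is not drawn, and in each row both tert-/- points lie to the right of all tert+/+ points.

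Per length, tert lay below the median of detected genes in the wild-type livers low in apoea. It lay above that median in the tert-/- livers and in the livers high in apoea. A gene with any count was taken as detected. RPKM values (reads per kilobase of gene and per 1000000 counts), recomputed with the total of each liver, were 0.127 to 0.611 in tert+/+, 0.575 to 0.875 in tert+/- and 1.01 to 1.04 in tert-/- among the livers low in apoea, and 1.89 to 3.81 in the livers high in apoea. Of the genes detected in a liver, 28.6% to 59.19% had a lower RPKM than tert in the livers low in apoea, and 57.1% to 69.2% in the other 3. The wild-type low livers gave 41.4%, 28.6%, 29.5% and 43.1%, and the tert-/- low livers 59.19% and 54.9%. By this rank too the tert-/- livers lay above the wild-type livers, while tert+/-, at 47.8% to 52.7%, lay between them with no overlap. The rank needs no scaling factor, but it shifts with the other genes detected in a liver. Tert+/+ replicate 1 ranked below tert+/- replicate 2, although its RPKM of tert was higher, at 0.611 against 0.575. The median RPKM of detected genes was 1.07 in the former and 0.669 in the latter. How many other genes separate the genotypes by this rank was not counted.

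Telomerase works as a complex, and neither tert nor the other genes of the complex passed the test in the trend. In that fit only 1 of 16219 genes was called (0.00617%), so no call in a short list is near that share. Of 13 genes for proteins that bind, process or place the telomerase RNA, 0 were called in the trend in the livers low in apoea. Of their estimates 12 were positive and 1 negative, with a median of 0.20 on the log2 scale, against -0.02 over all genes. The count of positive estimates was 9 without tert+/+ replicate 1, and 9 to 13 over the other settings. Of the 8 reference genes used for scaling, 7 had a positive estimate as well, with a median of 0.07. RUVBL2, an ATPase that helps to assemble the complex, held 4.60 to 8.43 TMM-normalized CPM in tert+/+, 7.44 to 10.5 in tert+/- and 10.2 to 10.3 in tert-/-, with a trend of 0.27 (SE 0.13, unadjusted p = 0.0669). Its partner RUVBL1 had a trend of 0.20 (SE 0.13), and NOP10, a small protein bound to dyskerin, one of 0.33 (SE 0.20). DKC1, dyskerin itself, ranged from 9.25 to 71.7 CPM over these livers, with a trend of 0.22 (SE 0.33). Thus the estimates of the partners were smaller than the 0.93 of tert, and no test of that difference was made.

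In livers high against low in apoea, 1 of the 13 genes was called, tep1, a telomerase-associated protein that is also a part of vault particles, named here for its call. It stood at 21.8 to 46.7 TMM-normalized CPM in the low livers and at 90.9 to 115 CPM in the high livers, a log2 difference of 1.73 (SE 0.25, edgeR adjusted p = 0.000168). The median over the 13 was 0.32, against -0.03 over all genes and 1.91 for tert, and DKC1 differed by 0.05 (SE 0.49). The 1 call by edgeR with TMM stands beside 19.2% of all genes called higher in the same fit. The count called higher was 4 of 13 with the column total and 5 with limma on recomputed RPKM. The shares of all genes called higher under those 2 settings are not given here, so these counts have no background beside them.

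Shelterin, the protein cap of the telomere, and the CST complex, which recruits the machinery that fills in the second strand, had 8 of 9 genes tested in the livers low in apoea. None was called in the trend, beside 0.00617% of all genes. Of the estimates 6 were positive and 2 negative, and the median was 0.21. Terf2ip, the shelterin subunit Rap1, had the smallest p, at 1.59 to 2.69 TMM-normalized CPM in tert+/+, 1.37 to 5.10 in tert+/- and 2.79 and 4.81 in tert-/-, with a trend of 0.46 (SE 0.25). POT1, which binds the single-stranded end, had a trend of 0.38 (SE 0.27), and TEN1 of CST one of 0.27 (SE 0.16). Between livers high and low in apoea 2 of 9 were called, beside 34.5% of all genes, of which tinf2, the shelterin hub, was higher by 1.27 (SE 0.40) and TEN1 lower, with a log2 difference of -0.94 (SE 0.29). Without tert+/+ replicate 5 or without tert+/- replicate 3, 0 of the 9 were called in either direction, and without tert-/- replicate 1 none was called lower.

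Other genes of telomere maintenance, such as helicases and end-processing nucleases, gave 10 positive and 7 negative trends of 17, with a median of 0.06. In the trend 0 were called, beside 0.00617% of all genes. RTEL1, the helicase that unwinds telomere loops, had a trend of 0.26 (SE 0.18), ZBTB48, a protein that binds telomere repeats, one of 0.33 (SE 0.23), and XRCC6, the Ku70 end-binding protein, one of 0.15 (SE 0.12). Of the 17, recql4 and MRE11 were called higher and 1 tankyrase gene (TNKS) was called lower in the livers high in apoea, which is 3 calls beside 34.5% of all genes. Without tert+/+ replicate 5 none of these calls was made, and none was called lower with the column total, the 8 reference genes or limma.

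Transcription factors known in mammals to act on the TERT promoter included the MYC, MAX and MNT network, SP1, ETS and GABP factors. Of 26 tested in the livers low in apoea, 9 had a positive and 17 a negative trend. The median was -0.07, and 0 were called, beside 0.00617% of all genes. The count with a positive trend was 14 without tert-/- replicate 2. Of the 2 genes with the symbol MNT, a MAX partner that represses MYC targets, 1 was the only list member with an unadjusted p under 0.05 by edgeR. It had a trend of 0.40 (SE 0.16), at 3.74 to 6.13 TMM-normalized CPM in tert+/+, 6.81 to 9.59 in tert+/- and 6.42 to 10.7 in tert-/-. Of the 2 genes with the symbol MYC, the one with the smaller p had a trend of 0.69 (SE 0.41), and hif1aa, a hypoxia factor, had one of -1.33 (SE 0.77). The value of hif1aa rested on tert+/+ replicate 1, a liver with heart muscle transcripts, at 11.7 CPM against 0.296 to 1.05 CPM in the other wild-type low livers, and it was 0.17 without that liver. Between livers high and low in apoea 3 of 27 were called higher and 6 lower, beside 19.2% and 15.4% of all genes, MAX by 1.16 (SE 0.24) and mych, a myc homologue, by 2.24 (SE 0.39) among those higher. The count of those lower was 0 without tert+/+ replicate 5, 1 without tert+/- replicate 3 and 2 without tert-/- replicate 1, and it ranged from 0, with the column total, to 7 over scalings and tools.

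The damage checkpoint, which short telomeres engage, gave 0 called genes of 14 in the trend, beside 0.00617% of all genes. Of the estimates 9 were positive and 5 negative, with a median of 0.17. ATM and ATR, the kinases that sense broken and single-stranded DNA, had trends of 0.29 (SE 0.15) and 0.31 (SE 0.20), and bbc3, the pro-apoptotic p53 target Puma, one of 0.86 (SE 0.47). ATM stood at 4.50 to 8.42 TMM-normalized CPM in tert+/+, 6.01 to 11.02 in tert+/- and 9.995 and 10.05 in tert-/-, whose livers lay above all 4 wild-type livers and within the range of tert+/-. In the livers high in apoea 5 of the 14 were called higher (CHEK1, chek2, BAX and both genes with the symbol GADD45A) and 0 lower, against 19.2% of all genes called higher. Without tert+/+ replicate 5, 2 were called higher, while calls over all genes in both directions fell from 5651 to 3427.

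Factors of nonsense-mediated decay, the pathway that removes transcripts with a premature stop, gave 5 positive and 7 negative trends of 12. Their median was -0.05, and 0 were called, beside 0.00617% of all genes. RBM8A and EIF4A3, core proteins of the exon junction complex, had trends of 0.23 (SE 0.14) and 0.16 (SE 0.12), and upf3a one of -0.44 (SE 0.31). By edgeR none of the 12 was called between livers high and low in apoea, beside 34.5% of all genes. There 0 had an unadjusted p under 0.05, beside 43.5% of all genes. DESeq2 called 0 as well, while 1 was called with the column total, with limma on recomputed RPKM and without tert+/- replicate 3. The shares of all genes called under these settings are not given here.

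Genes of DNA replication and mitosis were higher in the livers high in apoea, as tert was in tert+/+ and tert+/-. In the tert-/- liver high in apoea, tert after TMM scaling was 4.94 CPM, between the 3.95 and 5.68 of the low livers. By the column total it lay above both. Summed over 28 genes by the column total, the replication and mitosis genes stood at 12.8 to 133 CPM in the livers low in apoea. In the 3 livers high in apoea they stood at 192 to 449 CPM. In tert-/- the sum was 382 CPM in the high liver against 16.6 and 51.6 CPM in the low livers. Of 22 tested, 16 were called higher and 0 lower in the livers high in apoea, beside 19.2% and 15.4% of all genes. The median was 2.59 on the log2 scale against 1.91 for tert. The filter asks for counts in 3 livers, the size of the smallest genotype, and 3 livers were high in apoea. A gene could therefore be tested here through those livers alone, and the rest of the 28 were not tested. Without tert+/+ replicate 5 the count called higher was 9, while calls over all genes, in both directions together, fell from 5651 to 3427. The share of all genes called higher in that fit is not given here. MCM7, a subunit of the replicative helicase, ranged from 0.968 to 5.39 TMM-normalized CPM in the low livers and from 14.7 to 18.1 CPM in the high livers. Mki67, the proliferation marker Ki-67, held 1.70, 3.06 and 10.7 CPM in the high livers of tert+/-, tert-/- and tert+/+, which is not the order of tert. Of the 7 leukocyte genes tested, 3 were called higher and 0 lower there, among them ptprc, the common leukocyte antigen CD45, at 3.87 to 12.2 CPM in the low livers and 17.2 to 25.03 CPM in the high livers. The sum of all 11 was 174 and 173 CPM in the high livers of tert+/+ and tert-/-, and at 78.7 CPM that of tert+/- lay within the 22.3 to 105 CPM of the low livers. Their part in the level of tert was not tested.

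Within the livers low in apoea the replication and mitosis genes gave 20 positive and 1 negative trend of 21, with a median of 0.37. Of the 21, 0 were called, beside 0.00617% of all genes. These trends were no stepwise rise with the copies lost. In tert+/- against tert+/+, 19 were higher and 2 lower (median 1.06), whereas in tert-/- against tert+/-, 3 were higher and 18 lower (median -0.55). Mki67 had a trend of 0.61 (SE 0.41) and MCM7 one of 0.46 (SE 0.33), while kif11, a spindle motor, had one of -0.65 (SE 0.45). Their summed level did not separate the genotypes, with 69.1, 17.7, 13.5 and 12.8 CPM in tert+/+ replicates 1 to 4, 56.3, 29.2, 33.1 and 133 CPM in tert+/- replicates 1, 2, 4 and 5, and 16.6 and 51.6 CPM in tert-/- replicates 2 and 3. In tert-/- replicate 2 tert was the highest of the 10 at 4.22 CPM by the column total, beside a sum near that of tert+/+ replicate 2. The TMM factors were 0.744 in tert-/- replicate 2 and 1.06 in tert+/+ replicate 2, so the order of these sums depends on the scaling. Among the wild-type low livers, replicate 1 had both the most tert and the largest sum by the column total, whereas after TMM scaling replicate 4 had the most tert.

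**Figure D4:**
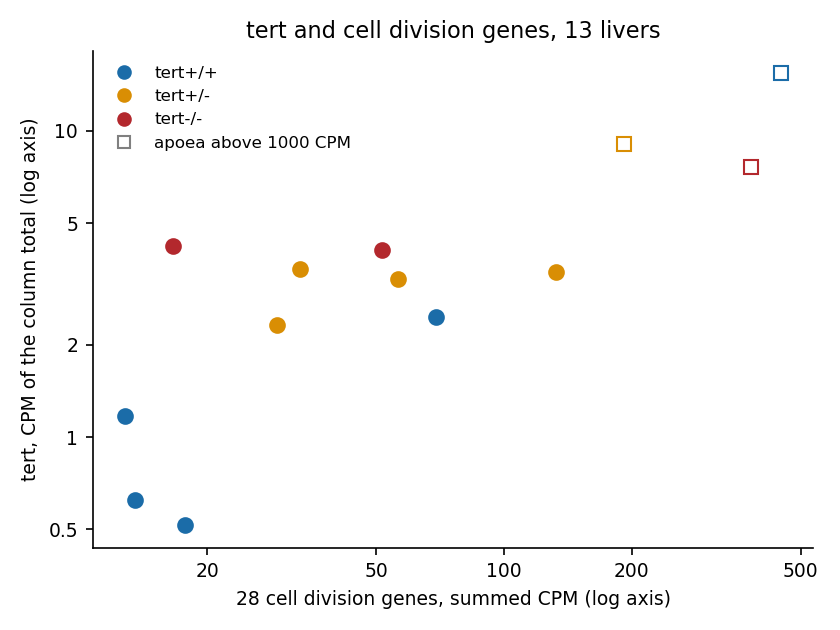
Level of tert in CPM of the column total (y axis, log scale) against the summed CPM of 28 genes of DNA replication and mitosis (x axis, log scale) in 13 livers. Colours give the genotype, filled circles livers with apoea below 100 CPM and open squares livers above 1000 CPM. The open squares lie at the upper right, at 192 to 449 CPM of the summed genes, and the tert-/- circles lie above the tert+/+ circles at like sums.

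In the livers low in apoea, the summed markers of germ cells, leukocytes, intestine and exocrine pancreas overlapped between the genotypes. The 15 testis and germ cell genes summed to 0.937 to 7.81 CPM by the column total in the livers low in apoea, 0.937 to 7.81 in tert+/+, 3.06 to 5.13 in tert+/- and 2.28 and 4.18 in tert-/-, and to 4.19 to 9.66 CPM in the livers high in apoea. The 11 leukocyte genes summed to 22.3 to 103 CPM in tert+/+, 35.4 to 105 in tert+/- and 51.6 and 61.6 in tert-/- among the low livers, with 0 of 7 called in the trend. The 12 intestine genes summed to 193 to 336 CPM in tert+/+, 96.1 to 288 in tert+/- and 184 and 388 in tert-/- among the low livers, a range that overlapped between genotypes, and 0 of 7 were called. The 14 exocrine pancreas genes, with 13 of 14 trends positive and 0 called, summed to 26.6 to 512 CPM in tert+/+, 95.4 to 537 in tert+/- and 196 and 205 in tert-/-. These counts of 0 called stand beside 0.00617% of all genes called in the trend. The part of these markers in the trend of tert was not tested.

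Of the closest genes along the chromosome that were tested, none was called in the trend, and neither was tert itself, beside 0.00617% of all genes. In the gene order of RefSeq (assembly GRCz12tu, used for order only), nup42, a nuclear pore protein, precedes tert, and cyp51, the lanosterol demethylase of cholesterol synthesis (CYP51A1 in the files), precedes nup42. Nup42 had a trend of 0.06 (SE 0.20) in the livers low in apoea, at 2.15 to 3.54 TMM-normalized CPM in tert+/+, 1.61 to 3.79 in tert+/- and 2.18 and 3.54 in tert-/-. CYP51A1 had a trend of 0.76 (SE 0.89) and ranged from 2.71 to 179.8 CPM, so that its spread within a genotype was larger than the difference. SLC6A18, an amino acid transporter gene that follows tert, was at 0 to 0.24 CPM in the livers low in apoea and was not tested. The second gene after tert, slc6a19a.1, was not matched to 1 identifier.

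Over a wider window of 50 protein-coding genes on each side (38 before tert, where the chromosome ends), 59 of 88 genes were matched and 43 tested. By edgeR none was called in the trend, beside 0.00617% of all genes. An unadjusted p under 0.05 was seen in 5, which is 11.6% against 3.65% on the rest of the chromosome and 2.14% over all genes. This window was set after the data were seen. Those 5 were BTD, biotinidase, which rose in estimate by 1.33 per copy lost (SE 0.20, unadjusted p = 3.25e-05, edgeR adjusted p = 0.264), and 4 with lower estimates. BTD held 2.11 to 5.61 TMM-normalized CPM in tert+/+, 7.58 to 11.4 in tert+/- and 14.3 and 32.9 in tert-/- with no overlap, and DESeq2 called it (1.34, adjusted p = 1.43e-05), while no other alternative did. Sema6ca, a semaphorin 7 genes before tert, had a trend of -0.97 (SE 0.28) and held 5.73 to 27.7 TMM-normalized CPM in tert+/+, 4.90 to 10.6 in tert+/- and 3.35 and 3.41 in tert-/-. Gpd1c, a glycerol-3-phosphate dehydrogenase 13 genes before, had one of -0.37 (SE 0.13), and col14a1b and zhx2b had -0.79 (SE 0.33) and -1.50 (SE 0.62), the latter at under 0.51 CPM throughout. The allele of tert and the chromosome segment inherited with it cannot be told apart in this design.

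**Figure D5:**
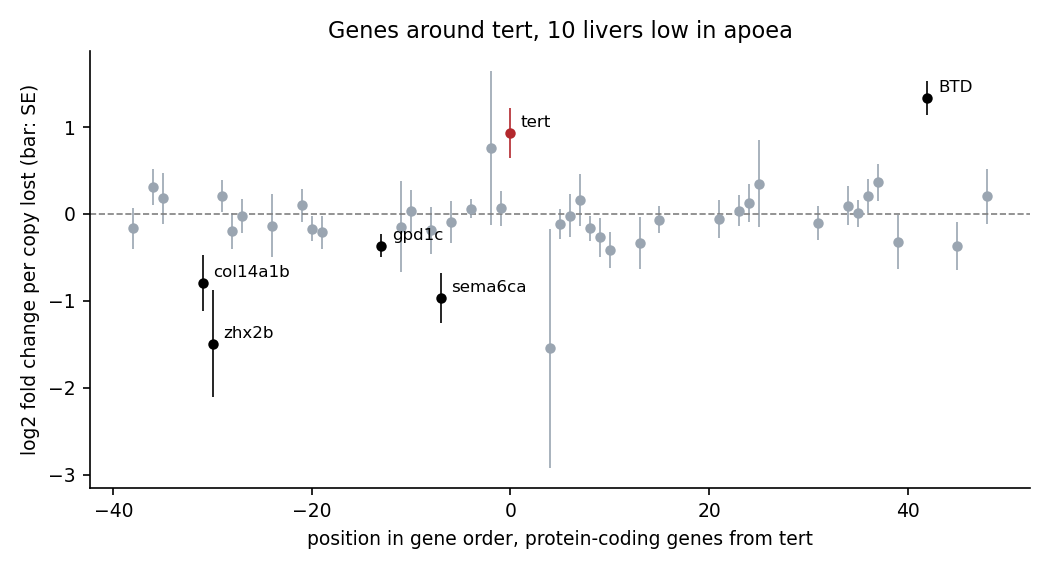
Trend per functional copy lost in the 10 livers low in apoea (y axis, log2 fold change, bars 1 SE) for the tested genes around tert, against their place in the gene order counted from tert (x axis). Tert is in red at 0.93, the 5 genes with an unadjusted p under 0.05 are in black and named, and the others are in grey.

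The genes with the pattern most like that of tert were found by Pearson's correlation of log2 CPM across livers, which share library and depth, and the values are descriptions. Over all 13 livers and 16375 genes they were LSM7 (0.94), TRAK1 (0.93), fanca (0.92), MTAP (0.90) and SELENOM (0.89). Over the 10 livers low in apoea they were TRAK1 (0.94), LSM7 (0.91), fanca (0.90), ENSDARG00000105270 (0.89) and MTAP (0.88), so that 4 of 5 were the same. The 10 livers are part of the 13, so these 5 are no independent repeat. LSM7 is a subunit of the Lsm ring in RNA splicing and decay, TRAK1 an adaptor for the transport of mitochondria, fanca a core protein of the Fanconi anaemia repair pathway, and MTAP an enzyme of methionine salvage.

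Fanca, like tert, was lowest in tert+/+ replicates 2 and 3, at 0.215 and 0.262 TMM-normalized CPM against 0.920 and 1.15 in replicates 1 and 4. It held 0.759 to 2.12 CPM in tert+/-, 1.35 and 1.86 in tert-/- and 1.83 to 2.91 in the livers high in apoea, with a trend of 0.72 (SE 0.36) in the low livers. TRAK1 showed the same pair of low wild-type livers, at 14.9 and 17.2 CPM against 33.1 and 50.5, and a trend of 0.44 (SE 0.24). Fanca and TRAK1 were picked for their correlation with tert in these livers, so the shared pair is no separate result. Beside 0.00617% of all genes called in the trend, none of the genes most like tert was called. Of them MTAP was called between livers high and low in apoea (1.27, SE 0.22, edgeR adjusted p = 0.000674), beside 34.5% of all genes called in that fit.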

How the data were processed

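RNA of 13 zebrafish livers was sequenced. The deposited counts per gene are whole numbers, 1 column per fish, and the submitters' processing notes list GRCz10, featureCounts 1.4.6-p4, STAR 2.4.1d and bcl2fastq 1.8.4, whereas the study's methods name kallisto. The library kit does not mark strand, so reads of overlapping antisense transcripts cannot be told apart. The authors also deposited RPKM values. In 2866 genes with at least 200 counts in every liver, the gene length implied by RPKM varied between livers with a median CV of 27.8% under division by the column's own total and of 0.00188% under division by the 13 totals in rotation from gene to gene. So 7.69% of the values carry their own liver's total, and RPKM was recomputed and both forms served only as alternatives.

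Genotypes came from the strain labels. Livers were split at 100 and 1000 CPM of apoea. Counts were fitted in edgeR 4.0.16 (R 4.3.3; TMM, filterByExpr, quasi-likelihood test, adjusted p under 0.05 over all genes kept), with filter and scaling computed within the livers low in apoea where these alone were fitted. Permutation tests enumerated all arrangements (Python 3.11.15, pandas 2.3.3). The steps were also run on simulated counts with a smaller spread between livers than these data have, which does not show their power for tert here. Alternatives were DESeq2 1.42.0, limma 3.58.1 on log2(RPKM + 0.1) and log2(RPKM + 1), which understates changes of low genes, other scalings, no filter, only the groups compared, an intestine marker share of 1% as the split, and leaving out livers. Leaving out livers with a mitochondrial share over 30% and TMM within the low livers in the permutation tests were added after the data were seen.

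The gene, the split and the 16 gene lists were chosen with earlier results of these data known. Of 32105 identifiers, 26269 had a symbol, some of them human. Named genes are tert, apoea, up to 2 neighbours on either side, the 3 list members with the smallest p in the trend, marker genes of highest level, and the 5 genes most like tert; the others named for their calls or their place near tert were chosen after their values were seen. Genes that share a symbol were kept apart by identifier, and counts of close paralogs may be split between them. No library was a copy of another: the most alike of 78 pairs differed by a chi-square of 86.1 for each degree of freedom. No sequences or coordinates are given, since none were used here.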

Additional observations from a re-analysis of the deposited data

Results flagged for a closer look

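In each genotype with 5 livers, 1 liver stood apart from the other 4 in tert, by Dixon's gap test. It was tert+/+ replicate 5, at 11.4 TMM-normalized CPM (gap over range 0.825, critical value 0.71) and 15.4 CPM by the column total (0.869), and tert+/- replicate 3, at 9.79 TMM-normalized CPM (0.897) and 9.09 CPM by the column total (0.820). Both are livers high in apoea. Chance alone flags about 1 in 20 groups, and 4 of 8 groups tested were flagged, 2 livers under 2 scalings each. In the livers low in apoea no liver stood apart in tert by this test.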

How the results depend on the processing

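The tert comparisons kept their direction and their side of the threshold in 395 alternative values, while 3 turned, 5 newly passed and 1 no longer passed. Some of the 395 could not differ, so the count overstates the agreement. The split by intestine marker share gave the same livers, and leaving out a liver outside a comparison left its difference of means unchanged. In all livers the log2 fold change of tert+/- against tert+/+ was 0.36 and turned to -0.25 (SE 0.86) without the livers with a mitochondrial share over 30%, a setting chosen after seeing the data. Over single livers left out it ran from -0.21 to 1.67, and the difference of means from -0.373 to 2.99 TMM-normalized CPM, the lowest in both being without tert+/- replicate 3. Livers high against low in apoea ran from 1.07, no longer past the threshold without tert+/+ replicate 5, to 2.47. The slope of log2 tert per copy lost in the livers low in apoea had an exact permutation p of 0.06 after adjustment. It passed without any 1 of 4 livers, over a range of 0.854 to 1.27 for all single livers left out. With RPKM as deposited the slope was 1.39 (exact adjusted p = 0.00889), but only 7.69% of those values carry their own liver's total. The error multiplied tert by 0.623 to 1.53 in the tert+/+ low livers and by 1.62 and 1.34 in the tert-/- low livers. Passing with the deposited values is therefore no check of the slope. The trend of tert there was positive under all alternatives, at 0.35 with limma on log2(RPKM + 1) to 1.16 with RPKM as deposited. The cause of these shifts was not tested.

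Among single genes, the trend of nup42 turned to -0.0037 with 8 reference genes and ran from -0.052 to 0.18 with single livers left out. That of hif1aa turned to 0.0080 without the livers with heart muscle transcripts and ran from -1.55 to 0.17, and that of kif11 turned to 0.23 without the livers of high mitochondrial share. The call of SLC5A11 was lost with DESeq2, limma, total-count scaling, without the livers with heart muscle transcripts or of high mitochondrial share, and with each single liver left out but tert+/- replicate 5, while BTD was called by DESeq2 alone. Counts of called genes depended on the tool. DESeq2 called 6, 10 and 4 genes in the genotype pairs of the livers low in apoea and 6 in the trend, where edgeR called 0, 0, 0 and 1, and 3, 0, 2 and 1 in all livers, where edgeR called 0. The adjusted p of tert by DESeq2 is NA for tert+/- against tert+/+. For the difference of trends, edgeR called 2 genes, DESeq2 7 and limma on log2(RPKM + 1) 54. Calls between livers high and low in apoea ranged from 3427, without tert+/+ replicate 5, to 6567 against 5651.

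No paired analysis was possible because the replicate numbers were given in accession order and name single fish. With 2 tert-/- livers low in apoea, and tert counts of 18 to 138 in those livers, small differences were not detectable.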
